A study of Mus musculus with 11 samples.

Results

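RNA was compared in mouse ovarian granulosa cells before and 48 h after equine chorionic gonadotropin (eCG), across every gene of the deposited RNA count table rather than across the steroidogenic genes and targets of follicle-stimulating hormone (FSH). The table held 24809 gene IDs, of which 19566 had a count in at least 1 library and 14401 had enough counts to be tested. Both groups came from C57BL/6 mice labelled as postnatal day 21, and granulosa cells were taken from the ovaries by puncturing follicles. The 3 libraries of the 0 h group came from untreated mice and the 3 of the 48 h group from mice given eCG, which the labels equate with FSH. Nothing in the labels says whether a library pooled several mice, and the series text calls the libraries of a group biological replicates. An untreated group at 48 h is not among the samples, so eCG and the passage of time cannot be told apart. The same label of age on both groups leaves unclear whether it is the age at injection or at collection. Of the 11 samples of the series, 6 are these RNA libraries, and 4 libraries of H3K4me3, a histone mark found at active promoters, are used below only to set values beside the RNA.

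Granulosa cells surround the oocyte and, under FSH, divide, make oestradiol and build the fluid-filled antral follicle. The hormone acts through a receptor coupled to cAMP and protein kinase A, and eCG is used in immature rodents because it acts on this receptor and starts a synchronous wave of follicle growth. A growing follicle also needs membrane lipid, secreted protein, metal cofactors and signals to vessels, nerves and the oocyte, and the lists described here cover such functions.

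Total counts were 12013849 to 26343971 per library, and levels are given as normalised read counts (CPM, counts scaled to a library of common size). A gene is called higher or lower, or said to have risen or fallen, where the adjusted p of edgeR's quasi-likelihood test was under 0.05. Beside a list's counts of rises and falls stand those that moved by more than 1.5 times under an alternative setting or with 1 library left out. Of 12 granulosa markers 8 rose and 2 fell, and their summed level was 23305, 18044 and 20841 CPM at 0 h and 44856, 46599 and 45618 CPM at 48 h. The falling count was 1 without replicate 1 of 0 h or replicate 2 or 3 of 48 h. Markers of other cells were measured too. All 12 endothelial markers rose, at a summed 131, 131 and 138 CPM at 0 h and 799, 257 and 319 CPM at 48 h, with 12 rises without replicate 1 of 48 h, 8 without replicate 1 or 2 of 0 h and 9 without replicate 3 of 0 h. The 12 theca markers, of which 3 rose and 2 fell, summed to 2879, 2398 and 2969 CPM at 0 h and 6245, 2476 and 2591 CPM at 48 h. Rises numbered 1 without any replicate of 0 h. Falls numbered 0 without replicate 3 of 48 h, 1 without replicate 2 or 3 of 0 h or replicate 2 of 48 h and 4 without replicate 1 of 48 h. Of 16 tested oocyte markers 7 fell. The number that fell was 2 without replicate 2 or 3 of 48 h, 3 without replicate 2 or 3 of 0 h and 16 without replicate 1 of 48 h. Their sums were 211, 243 and 231 CPM at 0 h and 165, 71.0 and 71.9 CPM at 48 h. Of 14 immune markers 0 were called by edgeR or DESeq2, 0 had an unadjusted p under 0.05, and 1 fell without replicate 1 of 0 h. They summed to 291, 496 and 364 CPM at 0 h and 416, 250.3 and 332 CPM at 48 h. For red cells 3 of 4 tested markers rose, with 4 haemoglobin genes at 0 counts in every library of the table. The 48 h replicate 1 thus stood apart in endothelial, theca and oocyte markers. The part of these cells in the values below was not tested, and in bulk RNA more cells of a type and more RNA per cell cannot be told apart.

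The response was broad and even in number. Of the 14401 genes tested 4585 were called (31.8%), 2303 higher (16.0%) and 2282 lower (15.8%). The call with at least a doubling or halving was met by 1102 genes (7.65%). The median log2 fold change of all genes tested was -0.03, and it is the level against which every list below is read. Small changes made up much of the count, since 1736 called genes had an absolute log2 fold under 0.5. Large changes were mostly rises. At a log2 fold of 2 or more 179 genes were higher and 43 lower, and at 3 or more 67 were higher and 3 lower. Genes called higher took 23.1% to 24.6% of the CPM of all genes tested in the 0 h libraries and 35.9% to 38.5% in the 48 h libraries. Genes called lower went from a share of 16.4% to 17.5% to a share of 10.2% to 10.3%. As these genes were chosen by their direction in the same libraries, the direction of both shifts was set in advance. The split depended on scaling. With libraries scaled to their size only, the median of all genes was -0.20 and 26.8% of calls were higher, against 50.2% with TMM scaling and 54.2% with DESeq2 size factors. The count of lower genes then was 4222. Leaving out 1 library also moved counts. The calls fell to 2956 without replicate 2 of 0 h and 2882 without replicate 3 of 0 h. The lower genes numbered 1376 and 1273 without these, 1295 without replicate 2 of 48 h and 1228 without replicate 3 of 48 h.

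**Figure D1:**
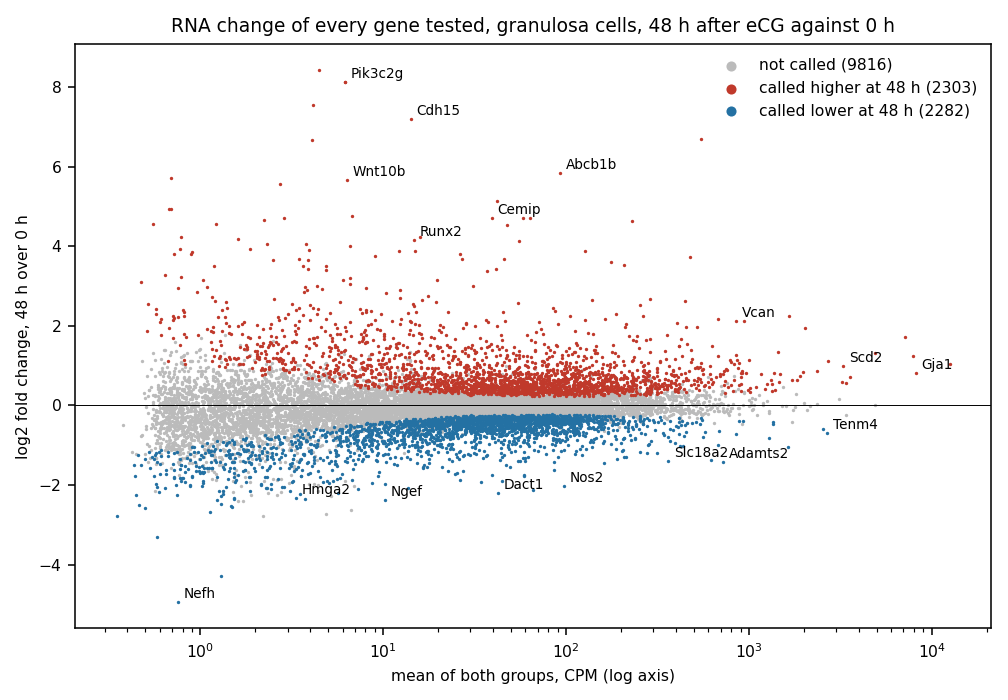
Each point is 1 of the 14401 genes tested. The x axis gives the mean CPM of both groups on a log axis and the y axis the fitted log2 fold change of 48 h over 0 h, and points are red where called higher (2303), blue where called lower (2282) and grey where not called. Large changes lie mostly above 0, with 179 genes at a log2 fold of 2 or more and 43 at -2 or less; the fitted value of genes with at most 3 counts in a group depends on the prior count.

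The genes that gained the most CPM outside the steroid and FSH genes were Gja1, Scd2, Prkar2b, Serpine2, Calr, Hsp90b1, Hspa5, Sparc, Psap and Vcan. Gja1 (chromosome 10, 56377300 to 56390419 of GRCm38.p6) encodes connexin 43, the channel that couples granulosa cells to each other. It stood at 6380.4, 5470.4 and 5974 CPM at 0 h and 10778, 10727 and 9749 CPM at 48 h (log2 fold change 0.81 ± 0.12 (SE), adjusted p = 0.00188). Prkar2b, a regulatory subunit of protein kinase A, measured 1938, 1564 and 1645 CPM at 0 h and 3196, 4014 and 3914 CPM at 48 h (log2 fold change 1.11 ± 0.14 (SE), adjusted p = 0.000899). Serpine2, a secreted inhibitor of thrombin and plasminogen activators, measured 2964, 2344 and 2799 CPM at 0 h and 4079, 4924 and 4195 CPM at 48 h (log2 fold change 0.70 ± 0.14 (SE), adjusted p = 0.00553). In each of these the lowest 48 h library was above the highest 0 h library. Sparc and Vcan encode a matrix glycoprotein and a matrix proteoglycan. Sparc had 356, 331 and 374 CPM at 0 h and 2361, 1079.8 and 1170.3 CPM at 48 h (log2 fold change 2.12 ± 0.28 (SE), adjusted p = 0.00114). Its value was highest in 48 h replicate 1, as were the sums of the endothelial and theca markers. That replicate was also the highest 48 h library in 133 of the 179 genes called higher at a log2 fold of 2 or more. Vcan had 342, 308 and 298 CPM at 0 h and 1505, 1394 and 1264 CPM at 48 h (log2 fold change 2.13 ± 0.11 (SE), adjusted p = 3.68e-05), with the 3 libraries of each group close together. Psap, the precursor of lysosomal saposins, had 1433, 1382 and 1463 CPM at 0 h and 3492, 1929.7 and 2217 CPM at 48 h (log2 fold change 0.84 ± 0.20 (SE), adjusted p = 0.0151), a call lost without replicate 2 of 0 h (0.0501) and without replicate 3 of 0 h (0.05003), in a range of 4.87e-05 to 0.0501 over all alternatives.

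Among the 10 that lost most CPM was Tenm4, a large transmembrane adhesion protein, at 3416, 3104 and 3365 CPM at 0 h and 2398, 1919 and 1809.6 CPM at 48 h (log2 fold change -0.69 ± 0.13 (SE), adjusted p = 0.00560). Ivns1abp, a kelch protein that binds actin, had 2533, 2113 and 1923 CPM at 0 h and 1059.9, 1053 and 1083 CPM at 48 h (log2 fold change -1.04 ± 0.12 (SE), adjusted p = 0.000801). Its 48 h libraries lay within a narrow band, below every 0 h library. Adamts2, which trims procollagen, had 912, 1086 and 1135 CPM at 0 h and 499.8, 355 and 322 CPM at 48 h (log2 fold change -1.41 ± 0.17 (SE), adjusted p = 0.000885). Ptprd, a receptor tyrosine phosphatase, had 909.9, 816 and 993 CPM at 0 h and 549, 406 and 409 CPM at 48 h (log2 fold change -0.9954 ± 0.14 (SE), adjusted p = 0.00164). Slc18a2 loads monoamines into vesicles, and it had 675, 388 and 506 CPM at 0 h and 289, 132 and 173 CPM at 48 h (log2 fold change -1.40 ± 0.29 (SE), adjusted p = 0.00774). Each of these 3 was highest at 48 h in replicate 1 and still below all 0 h libraries. Srrm2, a scaffold of nuclear speckles that overlaps Elob, fell by 0.73 on the log2 scale. For 3 others the call was lost when certain libraries were left out, 1 at a time. Thbs1, an inhibitor of vessel growth, fell by 0.58, a call lost without replicate 3 of 48 h (0.0549), in a range of 1.79e-05 to 0.0549 over all alternatives. The actin crosslinker Flna fell by 0.47, a call lost without replicate 2 of 0 h (0.0694), without replicate 3 of 0 h (0.0903), without replicate 2 of 48 h (0.0723) and without replicate 3 of 48 h (0.0810), in a range of 0.000738 to 0.0903 over all alternatives. Foxo1, a transcription factor that FSH signalling is known to restrain in these cells, had 1543, 1571 and 1527 CPM at 0 h and 953, 1292 and 1257 CPM at 48 h (log2 fold change -0.41 ± 0.13 (SE), adjusted p = 0.0452). Its call was lost without the count filter (0.0512), without replicate 1 of 0 h (0.0835), without replicate 2 of 0 h (0.130), without replicate 3 of 0 h (0.125), without replicate 2 of 48 h (0.0530) and without replicate 3 of 48 h (0.0796), in a range of 0.00917 to 0.130 over all alternatives.

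Promoter sequence was read beside these changes. The windows are those of RefSeq on GRCm38.p6, 250 bases before and 50 after a gene's start, and 11378 genes tested had one. The AP1 site TGANTCA, which reads the same on both strands, occurred in 5.04% of all these windows, in 11.7% (54 of 462) of those of genes at least doubled and called higher, and in 7.63% (27 of 354) of those at least halved and called lower. The cAMP response element TGACGTCA was in 3.11% of all windows, 1.52% of those higher and 2.54% of those lower. The NR5A site CAAGGTCA, searched on both strands, was in 1.05%, 1.30% and 0.28%. Base composition also differed between these groups of windows. The median GC content was 60.7% in all windows, 58.3% in those higher and 57.3% in those lower. In windows under 50% GC the AP1 letters were in 10.3% of all, 17.0% of higher and 13.8% of lower genes, and from 50% up in 4.28% of all, 35 of 350 higher and 5.62% of lower genes. These shares are descriptions without a test, and a match is not a bound site. Of the genes named by rule and called higher, 7 held the letters upstream of the start. No share is given for the named genes, so this number cannot be set beside the shares above. Gja1, Psap, Hspa5 and Sel1l rose by less than a doubling and lie outside the higher class counted above. The 7 windows are shown here with the match in capitals, read 5′ to 3′ on the gene's strand.
Gja1, chr10:56377240-56377299, plus strand: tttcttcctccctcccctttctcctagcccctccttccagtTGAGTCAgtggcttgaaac
Psap, chr10:60277568-60277627, plus strand: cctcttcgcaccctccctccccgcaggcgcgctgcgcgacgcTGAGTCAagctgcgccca
Asah2, chr19:32103181-32103240, minus strand: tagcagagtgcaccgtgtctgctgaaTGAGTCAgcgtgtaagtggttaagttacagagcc
Rsad2, chr12:26456506-26456565, minus strand: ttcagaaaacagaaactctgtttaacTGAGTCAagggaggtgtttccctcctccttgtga
Adora1, chr1:134235528-134235587, minus strand: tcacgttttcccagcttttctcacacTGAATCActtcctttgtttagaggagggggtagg
Hspa5, chr2:34771882-34771941, plus strand: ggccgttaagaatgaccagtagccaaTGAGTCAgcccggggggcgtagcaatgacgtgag
Sel1l, chr12:91849329-91849388, minus strand: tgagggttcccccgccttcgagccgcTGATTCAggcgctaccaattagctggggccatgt
The first base of the match lay 19 bases before the start in Gja1, 18 in Psap, 74 in Asah2, 87 in Rsad2, 104 in Adora1, 182 in Hspa5 and 205 in Sel1l. In Gja1, Psap, Asah2, Rsad2 and Hspa5 the match reads TGAGTCA, in Adora1 TGAATCA and in Sel1l TGATTCA.

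Of the 30 pathway lists, fatty acid synthesis and remodelling had the highest share of rising members. Of 31 tested genes (33 listed) 22 rose, 3 fell and 6 were not called, and the median log2 fold was 0.78. No alternative, and no library left out, moved either count by more than 1.5 times. Elovl6 (chromosome 3, 129532386 to 129638495), which lengthens palmitate to stearate, had 159, 167 and 143 CPM at 0 h and 765, 591 and 605 CPM at 48 h (log2 fold change 2.06 ± 0.13 (SE), adjusted p = 8.90e-05). Fads2, the first desaturase on the route to arachidonic acid, had 120.5, 90.1 and 125 CPM at 0 h and 593, 299 and 241 CPM at 48 h (log2 fold change 1.75 ± 0.31 (SE), adjusted p = 0.00375). Fads1, the next desaturase on that route, had 234, 195 and 223 CPM at 0 h and 878, 513 and 448 CPM at 48 h (log2 fold change 1.4986 ± 0.23 (SE), adjusted p = 0.00221). For both desaturases 48 h replicate 1 was the highest library, and the others still lay above all 0 h values, as the rule for naming these genes required. Groups did not overlap in 47.9% of all genes tested. Elovl2, which lengthens long polyunsaturated chains, had 19.5, 18.2 and 21.1 CPM at 0 h and 49.7, 59.8 and 53.8 CPM at 48 h (log2 fold change 1.48 ± 0.10 (SE), adjusted p = 0.000108). Scd2, a desaturase that makes oleate, had 2249, 2048 and 2322 CPM at 0 h and 5100.4, 4151 and 3869 CPM at 48 h (log2 fold change 0.99 ± 0.14 (SE), adjusted p = 0.00132). Scd2 and its relative Scd1, which rose by 1.46, are similar in sequence, and the sources used here do not say how shared reads were counted. In the core of the route Fasn, the synthase itself, rose by 0.51, Acly, which makes cytosolic acetyl-CoA, by 0.51, and Acaca, which makes malonyl-CoA, by 0.91. Enzymes that feed it rose too, with Acss2, which activates acetate, at 1.37 and Me1, which supplies NADPH, at 1.17. The regulator Srebf1 rose by 0.76. Mlxipl, the carbohydrate-responsive activator ChREBP, went the other way with 24.6, 40.3 and 40.3 CPM at 0 h and 19.6, 11.9 and 14.02 CPM at 48 h (log2 fold change -1.23 ± 0.23 (SE), adjusted p = 0.00512). Relative to the mean at 0 h, the median of the list on the log2(CPM + 1) scale was -0.00029, -0.0534 and 0.0544 at 0 h and 0.95, 0.64 and 0.64 at 48 h.

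**Figure D2:**
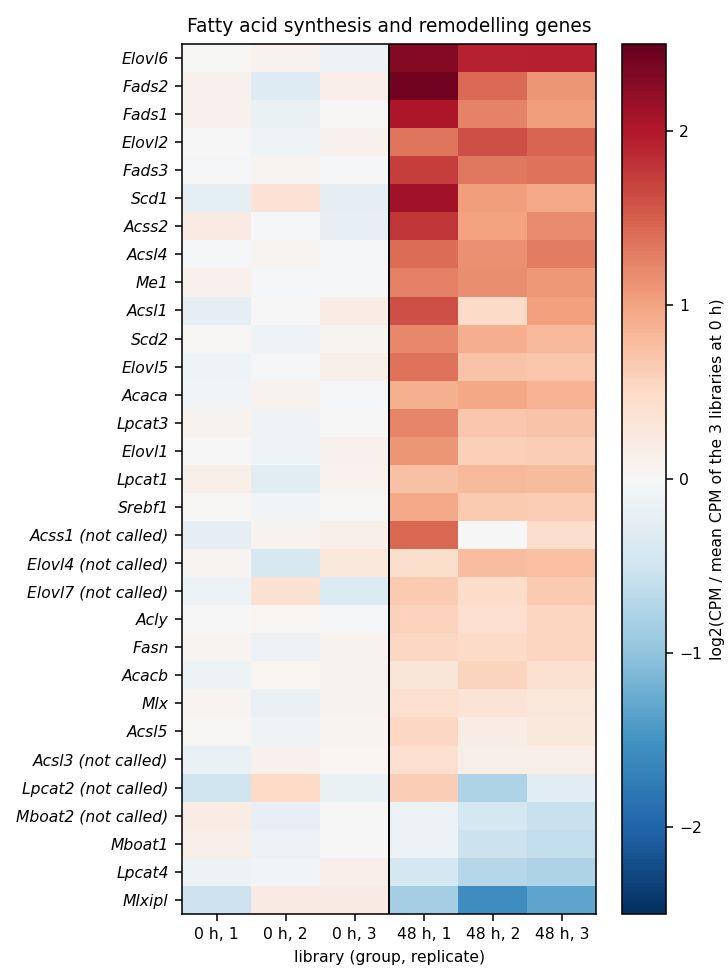
Rows are the 31 tested fatty acid synthesis and remodelling genes ordered by log2 fold change, columns the 6 libraries, and colour the log2 of CPM over the mean CPM of the 3 libraries at 0 h. The 22 genes called higher are red in every 48 h library, and Mlxipl is blue in all 3.

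Sphingolipids form membranes, and their product sphingosine 1-phosphate is a secreted signal. Of 37 tested members 16 rose and 2 fell, with a median of 0.33. Those that fell numbered 1 with DESeq2, with DESeq2 size factors, without the count filter or without replicate 2 or 3 of 0 h or replicate 2 or 3 of 48 h and 6 with scaling to library size only. Spns2, the exporter of sphingosine 1-phosphate, had 6.75, 7.96 and 8.39 CPM at 0 h and 31.1, 19.0 and 24.99 CPM at 48 h (log2 fold change 1.69 ± 0.19 (SE), adjusted p = 0.000621), though the gene overlaps Mybbp1a. Asah2, a neutral ceramidase, had 71.8, 58.3 and 63.1 CPM at 0 h and 212, 154 and 154 CPM at 48 h (log2 fold change 1.43 ± 0.14 (SE), adjusted p = 0.000378). Its acid relative Asah1 rose by 0.99, Ugcg, which makes glucosylceramide, by 1.05, and Sptlc1, a subunit of the enzyme of the first step, by 0.69. Sgpp2, which dephosphorylates sphingosine 1-phosphate, fell: it had 58.3, 62.6 and 68.7 CPM at 0 h and 27.9, 24.9 and 24.7 CPM at 48 h (log2 fold change -1.29 ± 0.10 (SE), adjusted p = 0.000128) and overlaps Farsb. S1pr1, a receptor for the secreted lipid that endothelium also expresses, had 3.79, 3.06 and 3.75 CPM at 0 h and 12.3, 5.96 and 6.44 CPM at 48 h (log2 fold change 1.22 ± 0.30 (SE), adjusted p = 0.0152). This call was lost without replicate 2 of 0 h (0.0522), in a range of 0.00104 to 0.0522 over all alternatives. The highest S1pr1 value was in 48 h replicate 1, as for the endothelial markers. That replicate was also the highest 48 h library in 436 of the 637 genes called higher with at least a doubling.

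Of 35 citric acid cycle and pyruvate entry genes 15 rose and 3 fell (median 0.25). The higher count became 8 with scaling to library size only and 9 without replicate 2 or 3 of 0 h. The lower count became 8 with scaling to library size only. Ogdhl, a paralogue of the 2-oxoglutarate dehydrogenase subunit, had 58.8, 54.2 and 64.5 CPM at 0 h and 186, 179.9 and 147 CPM at 48 h (log2 fold change 1.53 ± 0.11 (SE), adjusted p = 0.000128). Idh1, the cytosolic isocitrate dehydrogenase and a source of NADPH, had 218, 212 and 199 CPM at 0 h and 454, 429.9 and 453 CPM at 48 h (log2 fold change 1.09 ± 0.09 (SE), adjusted p = 0.000190). Pcx, pyruvate carboxylase, which overlaps Lrfn4, had 124, 113 and 134 CPM at 0 h and 306, 204 and 212 CPM at 48 h (log2 fold change 0.96 ± 0.16 (SE), adjusted p = 0.00284). In these 3 genes every 48 h library exceeded every 0 h library, as the rule for naming them required. The 3 that fell act on pyruvate dehydrogenase. Pdk4, a kinase that switches the complex off, had 53.4, 59.4 and 51.7 CPM at 0 h and 33.0, 29.5 and 27.9 CPM at 48 h (log2 fold change -0.87 ± 0.10 (SE), adjusted p = 0.000659), the kinase Pdk2 fell by 0.42 and the phosphatase Pdp1 by 0.44. In fatty acid oxidation and the peroxisome 11 of 40 tested genes rose and 2 fell. The share called was 32.5%, near the 31.8% of all genes tested. The median was 0.17, and near 0 on the negative side with scaling to library size only. Higher calls numbered 5 with scaling to library size only and 6 without replicate 2 or 3 of 0 h. Lower calls numbered 5 with scaling to library size only. Slc25a20, the carnitine carrier of mitochondria, had 28.4, 24.7 and 27.9 CPM at 0 h and 48.9, 40.7 and 41.6 CPM at 48 h (log2 fold change 0.70 ± 0.11 (SE), adjusted p = 0.00197). Ppara, the nuclear receptor that drives this programme in liver, fell, at 19.0, 21.9 and 21.8 CPM at 0 h and 12.3, 11.6 and 11.1 CPM at 48 h (log2 fold change -0.84 ± 0.11 (SE), adjusted p = 0.00127).

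Several chaperone genes of the endoplasmic reticulum (ER) rose, and several stress-induced factors of the same list were not called. The ER folds secreted and membrane proteins, and when misfolded protein builds up its sensors raise chaperones and slow translation. Of 32 listed genes 18 rose and 2 fell (median 0.35). The rising count was 11 without replicate 2 of 0 h. The falling count was 4 with scaling to library size only. Hspa5, the chaperone BiP, had 2871, 2371 and 2512 CPM at 0 h and 4331, 3615 and 3659 CPM at 48 h (log2 fold change 0.58 ± 0.13 (SE), adjusted p = 0.00987). Hsp90b1, the ER member of the HSP90 family, had 3042, 2562 and 2619.5 CPM at 0 h and 4557, 3853 and 3828 CPM at 48 h (log2 fold change 0.57 ± 0.13 (SE), adjusted p = 0.0100). Calr, a chaperone of glycoproteins that binds calcium, had 1901, 1496 and 1622 CPM at 0 h and 3451, 2876 and 2806 CPM at 48 h (log2 fold change 0.86 ± 0.14 (SE), adjusted p = 0.00237). For all 3 the highest 0 h value was in replicate 1 and the highest 48 h value in replicate 1. The co-chaperone Dnajb11 had 179, 157 and 168 CPM at 0 h and 296, 303 and 281 CPM at 48 h (log2 fold change 0.81 ± 0.09 (SE), adjusted p = 0.000586). Sel1l, part of the machinery that discards misfolded proteins, had 448, 388 and 397 CPM at 0 h and 766, 688 and 685 CPM at 48 h (log2 fold change 0.80 ± 0.10 (SE), adjusted p = 0.00109). The chaperone cofactor Sdf2l1 rose by 0.77, and the sensors Atf6 and Eif2ak3 by 0.31 and 0.51. Of the factors Ddit3, the stress factor CHOP, measured -0.47, Atf4 -0.11 and Trib3 -0.70, none of them called (adjusted p of 0.0530, 0.424 and 0.300). Asns, asparagine synthetase and a target of Atf4, fell, at 32.7, 23.8 and 28.2 CPM at 0 h and 18.7, 16.3 and 17.1 CPM at 48 h (log2 fold change -0.70 ± 0.13 (SE), adjusted p = 0.00500), and so did the amino acid sensor Eif2ak4, by 0.52.

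In the ER to Golgi list 18 of 39 rose and 2 fell (median 0.21), and neither count moved by more than 1.5 times under any alternative. The KDEL receptors return ER proteins from the Golgi. Kdelr2 had 176, 157 and 184 CPM at 0 h and 335, 323 and 294 CPM at 48 h (log2 fold change 0.88 ± 0.10 (SE), adjusted p = 0.000617). Kdelr3, which overlaps Ddx17, rose by 1.02 and Kdelr1 by 0.76. Surf4, a cargo receptor that overlaps Surf2, had 347, 296 and 357 CPM at 0 h and 677, 600.5 and 544 CPM at 48 h (log2 fold change 0.87 ± 0.12 (SE), adjusted p = 0.00136). The GTPases of coat assembly Sar1b and Sar1a rose by 0.80 and 0.68. Sec31b, a coat subunit, fell, at 17.8, 17.6 and 14.7 CPM at 0 h and 10.3, 8.001 and 8.88 CPM at 48 h (log2 fold change -0.89 ± 0.15 (SE), adjusted p = 0.00268), and Sec24b fell by 0.48.

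None of the 40 ribosome biogenesis genes rose and 20 fell, with a median of -0.32. The falls came to 37 with scaling to library size only and 11 without replicate 3 of 0 h. Polr1b, a subunit of RNA polymerase I, had 65.6, 59.6 and 65.8 CPM at 0 h and 38.1, 37.9 and 37.2 CPM at 48 h (log2 fold change -0.75 ± 0.08 (SE), adjusted p = 0.000490). Gnl3, nucleostemin, had 77.8, 69.0 and 84.5 CPM at 0 h and 48.8, 41.6 and 44.3 CPM at 48 h (log2 fold change -0.78 ± 0.10 (SE), adjusted p = 0.00114) and overlaps Glt8d1 and Snord69. Rrp12, an export factor of preribosomes, had 30.4, 34.3 and 37.6 CPM at 0 h and 22.7, 22.2 and 20.6 CPM at 48 h (log2 fold change -0.64 ± 0.10 (SE), adjusted p = 0.00268). Nop56, a core protein of box C/D small nucleolar ribonucleoproteins, had 184, 162 and 202 CPM at 0 h and 124, 116 and 113 CPM at 48 h (log2 fold change -0.64 ± 0.10 (SE), adjusted p = 0.00230) and overlaps Idh3b. In these 4 genes the 3 libraries at 48 h lay below all at 0 h, as the rule for naming them required. The median of the list relative to the mean at 0 h was 0.03, -0.08 and 0.0509 at 0 h and -0.41, -0.23 and -0.29 at 48 h. In this list edgeR and DESeq2 called 0 genes higher, and 0 had an unadjusted p under 0.05 in that direction. Of 38 tested small nucleolar RNA genes, whose products guide modification of ribosomal RNA, 0 rose and 8 fell (median -0.81), where 15.8% of all genes tested were lower. Such a gene can overlap a protein-coding gene, as Snord69 does Gnl3, so reads may be shared between them. By DESeq2 0 of these small nucleolar RNA genes rose and 4 fell. Higher with an unadjusted p under 0.05 were 0 of them. The falling count was 17 without replicate 1 of 48 h, 4 without replicate 2 of 0 h, 1 without replicate 3 of 0 h, 3 without replicate 2 of 48 h, 2 without replicate 3 of 48 h and 19 with scaling to library size only. Cytosolic tRNA synthetases had 0 higher and 2 lower of 23 and a median of -0.0528, or 8.70% called against 31.8% of all genes tested. Rises numbered 1 with DESeq2, with DESeq2 size factors or without replicate 3 of 0 h or replicate 1 of 48 h. Falls numbered 0 without replicate 3 of 0 h, 1 without replicate 1 of 0 h or replicate 2 or 3 of 48 h and 10 with scaling to library size only. DESeq2 called 1 higher, the number that had an unadjusted p under 0.05 in that direction. Iars, for isoleucine, had 87.0, 85.0 and 94.5 CPM at 0 h and 76.1, 66.9 and 66.2 CPM at 48 h and Yars, for tyrosine, 82.9, 73.4 and 77.1 CPM at 0 h and 57.3, 62.4 and 65.1 CPM at 48 h. Both lower calls were lost without replicate 3 of 0 h, Iars also without replicate 2 or 3 of 48 h and Yars also without replicate 1 of 0 h. Proteasome subunits had 7 rises and 0 falls among 32 (median 0.22), and 0 were lower by DESeq2 or at an unadjusted p under 0.05. The share called was 21.9%, where 31.8% of all genes tested were called and 16.0% were higher. The number that rose was 0 with scaling to library size only, 1 without replicate 2 or 3 of 0 h or replicate 2 of 48 h, 2 without replicate 3 of 48 h, 11 with DESeq2 or without replicate 1 of 0 h and 19 without replicate 1 of 48 h. The number that fell was 1 with scaling to library size only. The catalytic subunit Psmb5 had 47.4, 35.5 and 40.2 CPM at 0 h and 55.0, 54.0 and 50.9 CPM at 48 h, and its call was lost with scaling to library size only (0.130), without replicate 2 of 0 h (0.102), without replicate 3 of 0 h (0.0984), without replicate 2 of 48 h (0.0766) and without replicate 3 of 48 h (0.0511), in a range of 0.0113 to 0.130 over all alternatives. The lid subunit Psmd8 rose by 0.38, a call lost with scaling to library size only (0.0753), in a range of 0.000298 to 0.0753 over all alternatives.

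**Figure D3:**
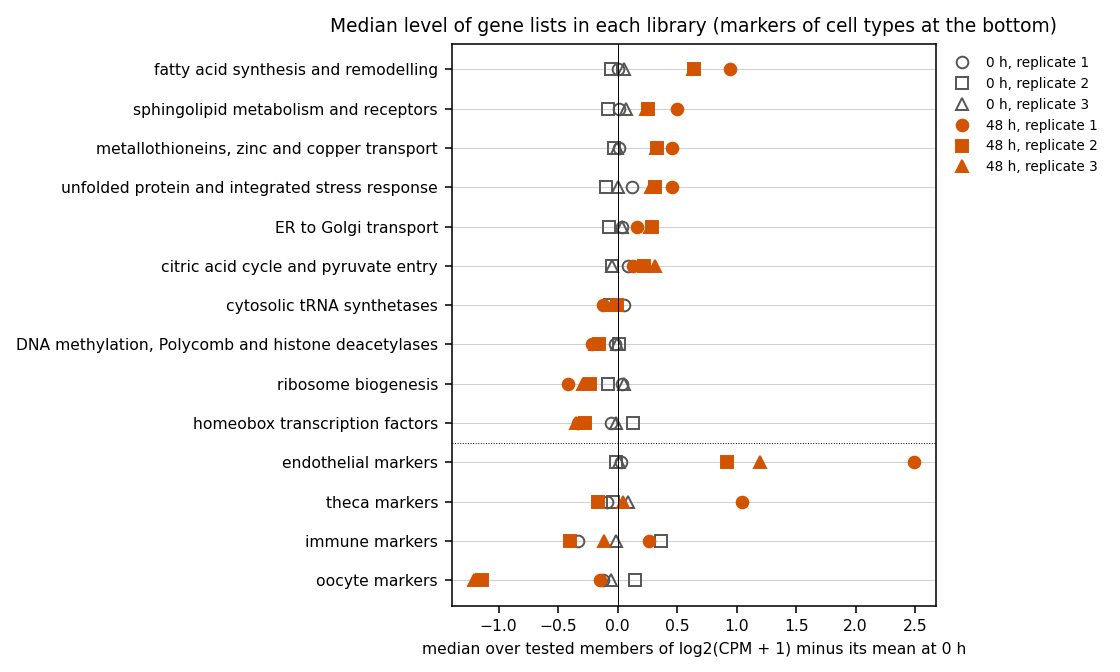
Each symbol is the median over the tested genes of a list of log2(CPM + 1) minus its mean at 0 h, in 1 library (open grey 0 h, filled orange 48 h; circle, square and triangle are replicates 1, 2 and 3). Ribosome biogenesis and homeobox medians lie below all 0 h libraries at 48 h, fatty acid, sphingolipid, metal and ER medians above them, and 48 h replicate 1 is apart in the endothelial, theca and oocyte markers shown under the dotted line.

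**Figure D4:**
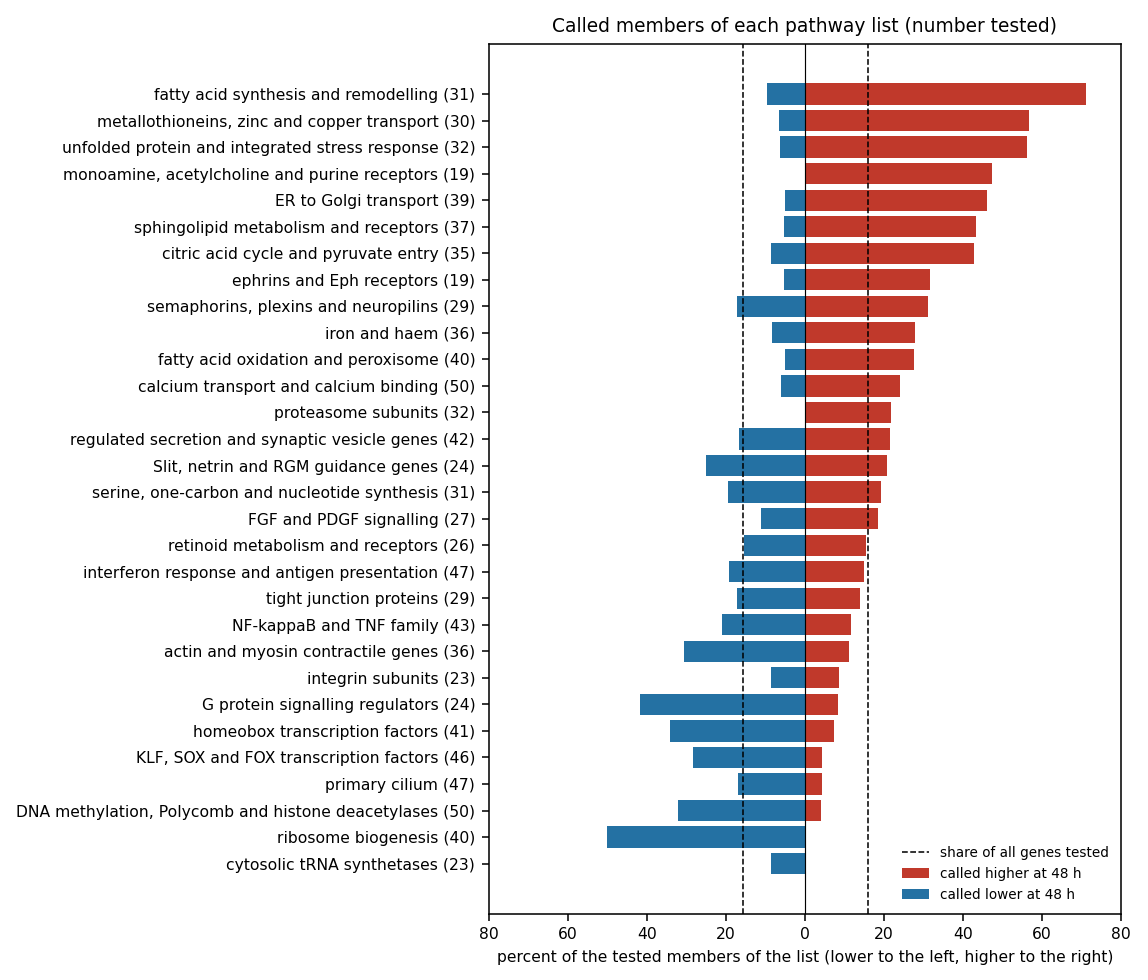
Bars give the percent of the tested members of each list called higher (red, to the right) and lower (blue, to the left) at 48 h, with the number tested in brackets. Dashed lines mark the shares of all genes tested, 16.0% higher and 15.8% lower; fatty acid synthesis has the longest red bar and ribosome biogenesis the longest blue bar.

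Zinc is moved into the cytosol by the ZIP proteins (Slc39a genes) and out of it by the ZnT proteins (Slc30a genes). Of 30 tested genes of this list 17 rose and 2 fell (median 0.38). Those that rose numbered 11 with scaling to library size only or without replicate 2 of 0 h. Those that fell numbered 0 without replicate 2 or 3 of 0 h or replicate 2 or 3 of 48 h and 1 with DESeq2, without the count filter or with the stricter count filter. Slc30a1, the exporter at the cell surface, had 36.1, 25.9 and 39.8 CPM at 0 h and 91.4, 69.7 and 69.9 CPM at 48 h (log2 fold change 1.1831 ± 0.17 (SE), adjusted p = 0.00162) and overlaps 1700034H15Rik. Slc39a11 had 21.9, 22.9 and 24.3 CPM at 0 h and 51.0, 42.4 and 41.6 CPM at 48 h (log2 fold change 0.96 ± 0.11 (SE), adjusted p = 0.000554) and overlaps Cog1. Altogether 9 Slc39a genes and 5 Slc30a genes were called higher. Slc39a8 had 3.47, 5.48 and 4.64 CPM at 0 h and 8.43, 7.60 and 7.23 CPM at 48 h, with a call lost with scaling to library size only (0.0542), without replicate 3 of 0 h (0.0616), without replicate 2 of 48 h (0.0631) and without replicate 3 of 48 h (0.0528), in a range of 0.00817 to 0.0631 over all alternatives. Atox1, a copper chaperone, had 27.6, 20.7 and 19.5 CPM at 0 h and 37.0, 35.3 and 34.9 CPM at 48 h (log2 fold change 0.66 ± 0.13 (SE), adjusted p = 0.00662), and the copper importer Slc31a1 rose by 0.66. Ccs, the chaperone that loads copper into superoxide dismutase, had 38.0, 37.8 and 37.1 CPM at 0 h and 31.2, 30.9 and 27.8 CPM at 48 h (log2 fold change -0.33 ± 0.09 (SE), adjusted p = 0.0199), a call lost without replicate 2 of 0 h (0.0753), without replicate 3 of 0 h (0.0645), without replicate 2 of 48 h (0.0632) and without replicate 3 of 48 h (0.0998), in a range of 0.00269 to 0.0998 over all alternatives.

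In the iron and haem list 10 of 36 rose and 3 fell (median 0.26), or 36.1% called against 31.8% of all genes tested. The lower count became 6 with scaling to library size only. Flvcr2, a haem and choline transporter, had 9.13, 9.83 and 8.18 CPM at 0 h and 33.6, 32.8 and 31.3 CPM at 48 h (log2 fold change 1.85 ± 0.11 (SE), adjusted p = 5.86e-05), with little spread inside either group. Tfrc, the transferrin receptor that brings iron in, had 77.6, 73.9 and 94.6 CPM at 0 h and 182, 143 and 130.4 CPM at 48 h (log2 fold change 0.89 ± 0.14 (SE), adjusted p = 0.00259). Slc40a1, ferroportin, the exporter of iron, fell, at 117, 101 and 87.3 CPM at 0 h and 61.9, 43.9 and 42.4 CPM at 48 h (log2 fold change -1.04 ± 0.16 (SE), adjusted p = 0.00216). Of the enzymes of haem synthesis Cpox had 61.5, 48.8 and 54.4 CPM at 0 h and 97.0, 99.0 and 110.3 CPM at 48 h (log2 fold change 0.90 ± 0.10 (SE), adjusted p = 0.000659), Fech, which inserts the iron, rose by 0.81, and Ppox fell by 0.51. Red-cell genes, which include haem synthesis of their own, rose too, and their part in these values was not tested. Fth1, the ferritin heavy chain, was among the abundant genes with little change, at 685, 673 and 631 CPM at 0 h and 704, 666 and 670.1 CPM at 48 h (log2 fold 0.04 ± 0.09 SE).

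Receptors for small transmitters were among the genes with large rises, and the called regulators that end G protein signals mostly fell. Of 44 listed receptors for monoamines, acetylcholine and purines 19 had enough counts to be tested, 9 rose and 0 fell. Receptors that reached the test through 48 h alone had to differ, so the share is no support. By DESeq2 0 fell, with scaling to library size only and without replicate 1 of 48 h 2 fell, and 2 were lower at an unadjusted p under 0.05. Adra1d (chromosome 2, 131545357 to 131562497), an adrenergic receptor that couples to calcium release, had 0.321, 0.346 and 0.739 CPM at 0 h and 22.5, 6.84 and 9.67 CPM at 48 h (log2 fold change 4.75 ± 0.55 (SE), adjusted p = 0.000718). Without 48 h replicate 1 its log2 fold was 4.09. Adra2a, an adrenergic receptor that inhibits cAMP formation, had 7.84, 10.1 and 7.55 CPM at 0 h and 27.4, 26.1 and 31.2 CPM at 48 h (log2 fold change 1.72 ± 0.14 (SE), adjusted p = 0.000204). Adora1, the adenosine receptor that also inhibits cAMP formation, had 2.96, 5.39 and 4.85 CPM at 0 h and 11.7, 10.4 and 10.1 CPM at 48 h (log2 fold change 1.28 ± 0.22 (SE), adjusted p = 0.00375). P2ry6, a receptor for UDP, had 11.3, 10.03 and 10.9 CPM at 0 h and 15.03, 15.2 and 15.5 CPM at 48 h (log2 fold change 0.50 ± 0.12 (SE), adjusted p = 0.0113). All 3 libraries at 48 h were above all at 0 h in each of these, as the rule for naming them required. Others that rose were Adra1b by 1.40 and Adrb1, which stimulates cAMP formation, by 1.1756. The RGS proteins speed up the shut-off of G proteins, and receptor kinases and arrestins silence receptors. Of 24 such genes tested 2 rose and 10 fell. Higher calls numbered 1 without any replicate of 0 h. Lower calls numbered 4 without replicate 3 of 0 h, 5 without replicate 2 or 3 of 48 h and 6 without replicate 2 of 0 h. Rgs2 had 567, 492 and 391 CPM at 0 h and 252, 268 and 254 CPM at 48 h (log2 fold change -0.91 ± 0.14 (SE), adjusted p = 0.00190). Rgs11 had 75.8, 66.5 and 73.9 CPM at 0 h and 43.5, 26.7 and 27.9 CPM at 48 h (log2 fold change -1.15 ± 0.18 (SE), adjusted p = 0.00207). Grk4, a receptor kinase, had 7.91, 8.10 and 7.70 CPM at 0 h and 4.83, 3.52 and 3.40 CPM at 48 h (log2 fold change -1.02 ± 0.19 (SE), adjusted p = 0.00514), and the arrestins Arrb1 and Arrb2 fell by 0.41 and 0.34. The 4 lower calls without replicate 3 of 0 h included Rgs2, Rgs11 and Grk4, so the arrestin calls cannot both hold there. Of the 2 that rose, Rgs5, which marks pericytes, had 7.27, 6.37 and 7.65 CPM at 0 h and 27.5, 9.28 and 15.1 CPM at 48 h, a call lost without replicate 1 of 0 h (0.0611), without replicate 2 of 0 h (0.0720) and without replicate 3 of 0 h (0.0627), in a range of 0.000665 to 0.0720 over all alternatives.

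Axon guidance families, which also direct vessels and epithelia, changed member by member. In the semaphorin, plexin and neuropilin list 9 of 29 rose and 5 fell (median 0.24), with neither count moved by more than 1.5 times by an alternative. Among ligands, Sema3d had 4.37, 4.20 and 4.33 CPM at 0 h and 25.1, 29.8 and 19.9 CPM at 48 h (log2 fold change 2.54 ± 0.17 (SE), adjusted p = 9.27e-05). Sema4g had 28.2, 41.0 and 46.2 CPM at 0 h and 15.9, 10.1 and 9.84 CPM at 48 h (log2 fold change -1.70 ± 0.23 (SE), adjusted p = 0.00123). Sema3e had 10.8, 11.3 and 10.9 CPM at 0 h and 5.98, 4.08 and 4.35 CPM at 48 h (log2 fold change -1.20 ± 0.18 (SE), adjusted p = 0.00192). Secreted ligands of class 3 thus moved both ways, and Sema3a and Sema3c also rose, by 1.02 and 0.80. Among receptors Plxnc1, which binds Sema7a, had 760.3, 539.8 and 573 CPM at 0 h and 1225, 1464 and 1444 CPM at 48 h (log2 fold change 1.14 ± 0.15 (SE), adjusted p = 0.00114), and its ligand gene Sema7a rose by 0.71. The neuropilins Nrp1 and Nrp2 measured 0.99 and 0.24 and were not called (adjusted p of 0.0531 and 0.607).

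Ephrins and Eph receptors signal between cells in contact. Of 19 tested 6 rose and 1 fell, or 36.8% called against 31.8% of all genes tested. The falling count was 0 without replicate 2 or 3 of 0 h or replicate 3 of 48 h, 2 without replicate 1 of 0 h or replicate 1 of 48 h and 4 with scaling to library size only. Ephb2 (chromosome 4, 136647536 to 136836326) had 2.76, 4.40 and 4.64 CPM at 0 h and 56.5, 22.9 and 26.4 CPM at 48 h (log2 fold change 3.14 ± 0.37 (SE), adjusted p = 0.000740). Replicate 1 was its highest 48 h library, as for the endothelial markers. The same held for 133 of the 179 genes called higher at a log2 fold of 2 or more. Epha3 had 1.93, 1.63 and 3.01 CPM at 0 h and 8.28, 5.80 and 4.96 CPM at 48 h (log2 fold change 1.53 ± 0.30 (SE), adjusted p = 0.00603), and Epha7 23.7, 18.3 and 14.1 CPM at 0 h and 37.1, 37.0 and 35.3 CPM at 48 h (log2 fold change 0.97 ± 0.17 (SE), adjusted p = 0.00326). The ligand Efna5 had 64.8, 75.0 and 69.0 CPM at 0 h and 119.5, 155 and 141 CPM at 48 h (log2 fold change 0.99 ± 0.11 (SE), adjusted p = 0.000585). The ligand Efnb3 was lower, at 11.1, 12.3 and 14.6 CPM at 0 h and 8.43, 9.68 and 5.75 CPM at 48 h, with a call lost without replicate 2 of 0 h (0.0861), without replicate 3 of 0 h (0.148), without replicate 1 of 48 h (0.0532) and without replicate 3 of 48 h (0.114), in a range of 0.0120 to 0.148 over all alternatives. Among Slit, netrin and RGM genes 5 of 24 rose and 6 fell, or 45.8% called against 31.8% of all genes tested. Falls numbered 2 without replicate 3 of 0 h or replicate 2 or 3 of 48 h and 3 without replicate 2 of 0 h. Of the Slit receptors Robo2 rose, at 62.9, 75.5 and 50.5 CPM at 0 h and 198, 249.7 and 202 CPM at 48 h (log2 fold change 1.78 ± 0.16 (SE), adjusted p = 0.000258), and so did Robo1, at 295, 259 and 311 CPM at 0 h and 505, 495 and 468 CPM at 48 h (log2 fold change 0.76 ± 0.10 (SE), adjusted p = 0.00116). The ligand Slit2 rose by 0.76. Of the netrins Ntn4 fell, at 87.3, 87.5 and 84.1 CPM at 0 h and 42.9, 28.0 and 28.2 CPM at 48 h (log2 fold change -1.39 ± 0.16 (SE), adjusted p = 0.000633) and the membrane-anchored Ntng1 at 31.6, 14.2 and 31.0 CPM at 0 h and 12.5, 8.88 and 8.71 CPM at 48 h (log2 fold change -1.36 ± 0.30 (SE), adjusted p = 0.00958).

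Claudins form the barrier strands of tight junctions. Cldn18 had 0, 0.0988 and 0.106 CPM at 0 h and 11.7, 5.201 and 7.49 CPM at 48 h (log2 fold change 6.66 ± 0.56 (SE), adjusted p = 0.000225), from 4 counts in all at 0 h. Cldn5, a claudin of endothelium, had 4.95, 4.84 and 4.59 CPM at 0 h and 28.1, 8.48 and 9.93 CPM at 48 h, and its log2 fold of 1.68 was 0.93 without replicate 1 of 48 h. Its call was lost without replicate 1 of 0 h (0.0504), without replicate 2 of 0 h (0.0514) and without replicate 3 of 0 h (0.0622), in a range of 0.000105 to 0.0622 over all alternatives. The scaffold Magi1 fell, at 63.3, 67.2 and 64.3 CPM at 0 h and 37.2, 31.0 and 26.8 CPM at 48 h (log2 fold change -1.03 ± 0.12 (SE), adjusted p = 0.000659). Marveld2, tricellulin, had 4.69, 8.25 and 14.8 CPM at 0 h and 4.52, 3.32 and 2.61 CPM at 48 h, a lower call lost without replicate 2 of 0 h (0.0514), without replicate 3 of 0 h (0.102), without replicate 2 of 48 h (0.0929) and without replicate 3 of 48 h (0.100), in a range of 0.00298 to 0.102 over all alternatives. Altogether 4 of 29 tight junction genes rose and 5 fell (median -0.04, with 0.09 under the stricter count filter and 0.17 without replicate 2 of 0 h). The share called was 31.0%, near the 31.8% of all genes tested. The number that rose was 2 without replicate 2 or 3 of 0 h. The number that fell was 3 without replicate 2 or 3 of 0 h or replicate 2 or 3 of 48 h. Of 23 integrin subunits 2 rose and 2 fell, or 17.4% called. Those that fell numbered 1 without replicate 2 or 3 of 0 h or replicate 2 or 3 of 48 h. Itgb3 had 41.4, 53.6 and 50.1 CPM at 0 h and 137, 125 and 106 CPM at 48 h (log2 fold change 1.34 ± 0.13 (SE), adjusted p = 0.000296), and Itga5, a fibronectin receptor subunit, 84.0, 84.0 and 90.8 CPM at 0 h and 176, 125 and 121 CPM at 48 h (log2 fold change 0.71 ± 0.14 (SE), adjusted p = 0.00646). Itga10, a collagen receptor subunit, fell, at 8.10, 8.35 and 9.71 CPM at 0 h and 5.44, 4.40 and 3.66 CPM at 48 h (log2 fold change -0.95 ± 0.19 (SE), adjusted p = 0.00685). Itga2 had 98.2, 120.4 and 151 CPM at 0 h and 94.5, 80.3 and 68.9 CPM at 48 h, a lower call lost without replicate 2 of 0 h (0.0602), without replicate 3 of 0 h (0.0939), without replicate 2 of 48 h (0.0899) and without replicate 3 of 48 h (0.108), in a range of 0.00611 to 0.108 over all alternatives.

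Of 36 actin and myosin genes 4 rose and 11 fell (median -0.14), where 15.8% of all genes tested were lower, and 0 of these members were called with at least a doubling or halving. The higher count became 7 without replicate 1 of 48 h. The lower count became 6 without replicate 3 of 0 h or replicate 3 of 48 h, 7 without replicate 2 of 0 h or replicate 2 of 48 h and 17 with scaling to library size only. Tpm1, a tropomyosin, had 236, 274 and 276 CPM at 0 h and 153, 119 and 134 CPM at 48 h (log2 fold change -0.96 ± 0.12 (SE), adjusted p = 0.000865). Rnd3, a small GTPase that loosens the actin skeleton, had 9.07, 11.1 and 12.2 CPM at 0 h and 6.75, 5.12 and 6.10 CPM at 48 h (log2 fold change -0.86 ± 0.18 (SE), adjusted p = 0.00760). Mylk, the kinase of myosin light chains, had 118, 152 and 121 CPM at 0 h and 95.9, 57.7 and 66.1 CPM at 48 h (log2 fold change -0.84 ± 0.19 (SE), adjusted p = 0.0100), a call lost without replicate 3 of 48 h (0.0567), in a range of 0.000196 to 0.0567 over all alternatives. Smooth muscle markers, which express several of these, summed to 349, 333 and 325 CPM at 0 h and 586, 233 and 297 CPM at 48 h. Tagln2, which is not restricted to muscle, rose, at 24.0, 32.2 and 27.1 CPM at 0 h and 54.5, 44.4 and 49.9 CPM at 48 h (log2 fold change 0.83 ± 0.13 (SE), adjusted p = 0.00210).

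Regulators of transcription and chromatin mostly fell where they changed. Of 46 tested KLF, SOX and FOX factors 2 rose and 13 fell (median -0.35). The share called was 32.6%, near the 31.8% of all genes tested. Higher calls numbered 1 with scaling to library size only, with the stricter count filter or without replicate 2 or 3 of 0 h or replicate 2 or 3 of 48 h. Lower calls numbered 8 without replicate 2 or 3 of 48 h and 21 with scaling to library size only. Foxp4 had 219.9, 233 and 246 CPM at 0 h and 108, 128 and 122 CPM at 48 h (log2 fold change -0.97 ± 0.10 (SE), adjusted p = 0.000348). Foxp2 had 91.4, 97.9 and 72.2 CPM at 0 h and 44.7, 47.7 and 45.9 CPM at 48 h (log2 fold change -0.92 ± 0.12 (SE), adjusted p = 0.000990). Sox4 had 388, 479 and 425 CPM at 0 h and 229, 277 and 265 CPM at 48 h (log2 fold change -0.74 ± 0.12 (SE), adjusted p = 0.00225). Non-overlapping groups of libraries were required for naming these genes. Klf6, an early response factor named by the same rule, fell by 0.70. Foxl2, which maintains granulosa identity, rose, at 371, 279 and 357 CPM at 0 h and 422, 546 and 503 CPM at 48 h (log2 fold change 0.55 ± 0.14 (SE), adjusted p = 0.0187), a call lost with scaling to library size only (0.0505), without replicate 2 of 0 h (0.0609) and without replicate 2 of 48 h (0.0531), in a range of 0.000348 to 0.0609 over all alternatives. Homeobox genes had 3 rises and 14 falls among 41 tested (median -0.42). The rising count was 1 with scaling to library size only or without replicate 1 or 3 of 0 h or replicate 2 of 48 h. The falling count was 9 without replicate 2 of 0 h or replicate 3 of 48 h and 22 with scaling to library size only. Hoxd4 had 32.3, 45.8 and 38.3 CPM at 0 h and 21.5, 15.7 and 10.97 CPM at 48 h (log2 fold change -1.27 ± 0.22 (SE), adjusted p = 0.00347) and overlaps Hoxd3, which fell by 1.31 with a call lost without replicate 2 of 48 h (0.0604), in a range of 0.000376 to 0.0604 over all alternatives. Emx2, needed for the embryonic gonad, had 30.9, 31.8 and 27.8 CPM at 0 h and 17.5, 17.8 and 17.7 CPM at 48 h (log2 fold change -0.77 ± 0.09 (SE), adjusted p = 0.000869). Hoxc8 fell by 0.77. Zeb2 rose by 0.33, a call lost with scaling to library size only (0.285), without replicate 1 of 0 h (0.0849), without replicate 2 of 0 h (0.0609), without replicate 3 of 0 h (0.0658), without replicate 2 of 48 h (0.0978) and without replicate 3 of 48 h (0.0881), in a range of 0.00700 to 0.285 over all alternatives.

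The list of DNA methylation, Polycomb and deacetylase genes had 2 rises and 16 falls among 50 (median -0.20). The share called was 36%, against 31.8% of all genes tested. Rises numbered 0 with scaling to library size only or without replicate 2 or 3 of 0 h and 1 without replicate 2 or 3 of 48 h. Falls numbered 10 without replicate 2 of 0 h or replicate 2 or 3 of 48 h and 27 with scaling to library size only. Cbx7, a Polycomb reader of methylated histone H3, had 19.4, 28.4 and 25.8 CPM at 0 h and 11.3, 10.3 and 9.84 CPM at 48 h (log2 fold change -1.23 ± 0.16 (SE), adjusted p = 0.000992) and overlaps Apobec3. Pcgf6, of a variant Polycomb complex, had 30.5, 32.1 and 32.3 CPM at 0 h and 18.4, 20.6 and 18.9 CPM at 48 h (log2 fold change -0.71 ± 0.09 (SE), adjusted p = 0.00105). Ezh1, a histone methyltransferase, had 68.2, 73.4 and 66.5 CPM at 0 h and 48.7, 41.5 and 41.0 CPM at 48 h (log2 fold change -0.67 ± 0.09 (SE), adjusted p = 0.00152). In each the 3 libraries at 48 h lay below those at 0 h, as the rule for naming them required. Sirt3, a mitochondrial deacetylase that overlaps Ric8a, fell by 0.77. Mbd2, a reader of methylated DNA, rose by 0.37, a call lost with scaling to library size only (0.124), without replicate 2 of 0 h (0.0556) and without replicate 3 of 0 h (0.0646), in a range of 0.00294 to 0.124 over all alternatives.

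Regulated secretion genes moved both ways. Of 42 tested genes 9 rose and 7 fell, or 38.1% called against 31.8% of all genes tested. The median was -0.02, a value above 0 with DESeq2, with the stricter count filter and without replicate 2 or 3 of 0 h. The number that fell was 12 with scaling to library size only. Rab27a (chromosome 9, 73044810 to 73097623) tethers secretory granules and had 4.89, 4.64 and 4.06 CPM at 0 h and 43.4, 21.1 and 27.2 CPM at 48 h (log2 fold change 2.75 ± 0.26 (SE), adjusted p = 0.000329). Sytl2, an effector of Rab27 proteins, had 38.7, 29.7 and 30.7 CPM at 0 h and 13.6, 11.4 and 13.9 CPM at 48 h (log2 fold change -1.36 ± 0.14 (SE), adjusted p = 0.000383), and another effector, Sytl3, rose by 2.39. Syt12 rose by 1.61, a call lost without replicate 2 of 0 h (0.0560), in a range of 0.000499 to 0.0560 over all alternatives. Calcium genes had 12 rises and 3 falls among 50 (median 0.15, and -0.02 with scaling to library size only). Their share called was 30%, near the 31.8% of all genes tested. Those that rose numbered 7 with scaling to library size only or without replicate 3 of 0 h. Those that fell numbered 5 without replicate 1 of 48 h and 6 with scaling to library size only. Trpv4, a calcium channel, had 11.6, 13.9 and 17.9 CPM at 0 h and 30.3, 32.0 and 29.5 CPM at 48 h (log2 fold change 1.08 ± 0.15 (SE), adjusted p = 0.00141). S100a6, a small calcium-binding protein, rose, at 6.36, 8.89 and 6.23 CPM at 0 h and 23.2, 20.9 and 15.9 CPM at 48 h (log2 fold change 1.48 ± 0.19 (SE), adjusted p = 0.00108). Atp2b3, a calcium pump of the plasma membrane, fell, at 10.2, 12.4 and 9.39 CPM at 0 h and 4.37, 2.2003 and 2.18 CPM at 48 h (log2 fold change -1.89 ± 0.28 (SE), adjusted p = 0.00188).

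Of 47 tested interferon and antigen presentation genes 7 rose and 9 fell (median -0.20), shares near the 16.0% higher and 15.8% lower of all genes tested. The lower count became 1 without replicate 2 of 48 h, 4 without replicate 2 of 0 h, 5 without replicate 3 of 0 h and 18 with scaling to library size only. Without replicate 2 of 48 h 10 rose. Rsad2, the antiviral protein viperin, had 10.2, 9.49 and 13.6 CPM at 0 h and 58.3, 15.9 and 56.3 CPM at 48 h (log2 fold change 1.95 ± 0.43 (SE), adjusted p = 0.0100). Isg20, an exonuclease, had 7.52, 4.60 and 9.23 CPM at 0 h and 31.2, 9.68 and 34.2 CPM at 48 h, a call lost without replicate 2 of 0 h (0.0560) and without replicate 3 of 48 h (0.0584), in a range of 0.00170 to 0.0584 over all alternatives. In both, 48 h replicate 2 was near the 0 h libraries while replicates 1 and 3 were high. This pattern was shared by the red-cell markers, which summed to 91.7, 69.7 and 130.4 CPM at 0 h and 548, 165 and 688 CPM at 48 h. Bst2, tetherin, had 137, 94.7 and 114 CPM at 0 h and 212, 182 and 209 CPM at 48 h (log2 fold change 0.80 ± 0.14 (SE), adjusted p = 0.00325), and Tap2, a peptide transporter, rose by 0.67, a call lost without replicate 1 of 0 h (0.0548), in a range of 0.000981 to 0.0548 over all alternatives. The classical targets Ifit1 and Ifit3 fell by 0.97 and 1.11. With 1 gene of the list called lower without replicate 2 of 48 h, these calls cannot both hold there. Of 43 NF-kappaB and TNF genes 5 rose and 9 fell, or 32.6% called, near the 31.8% of all genes tested. Higher calls numbered 3 with the stricter count filter or without replicate 2 of 0 h or replicate 3 of 48 h. Lower calls numbered 4 without replicate 2 or 3 of 48 h and 16 with scaling to library size only. The interleukin 1 receptor Il1r1 had 47.4, 40.6 and 50.7 CPM at 0 h and 75.7, 81.5 and 82.9 CPM at 48 h (log2 fold change 0.79 ± 0.10 (SE), adjusted p = 0.000926), while the pathway inhibitor Tnip2 had 19.6, 22.2 and 21.6 CPM at 0 h and 13.95, 11.9 and 11.9 CPM at 48 h (log2 fold change -0.75 ± 0.12 (SE), adjusted p = 0.00221). The adaptor Traf5 fell by 0.80, a call lost without replicate 2 of 48 h (0.0526) and without replicate 3 of 48 h (0.0524), in a range of 0.00308 to 0.0526 over all alternatives. The kinase Ikbke fell by 0.71, a call lost without replicate 2 of 48 h (0.0590) and without replicate 3 of 48 h (0.0608), in a range of 0.00199 to 0.0608 over all alternatives.

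Of 27 tested FGF and PDGF genes 5 rose and 3 fell, a share called near the 31.8% of all genes tested. The falling count was 1 without replicate 3 of 0 h or replicate 2 or 3 of 48 h and 6 with scaling to library size only. The receptor Fgfr4 had 6.69, 5.88 and 7.33 CPM at 0 h and 20.4, 20.1 and 16.7 CPM at 48 h (log2 fold change 1.53 ± 0.14 (SE), adjusted p = 0.000303). The ligand Pdgfd had 25.9, 20.1 and 23.6 CPM at 0 h and 50.7, 47.0 and 45.5 CPM at 48 h (log2 fold change 1.04 ± 0.11 (SE), adjusted p = 0.000476). Fgf13, an intracellular member of its family, rose by 0.82. Fgf11 fell by 1.34, a call lost without replicate 2 of 0 h (0.0596), without replicate 3 of 0 h (0.0740), without replicate 2 of 48 h (0.0872) and without replicate 3 of 48 h (0.0857), in a range of 0.00241 to 0.0872 over all alternatives. Retinoic acid is made by retinaldehyde dehydrogenases and removed by Cyp26 enzymes. Cyp26b1 (chromosome 6, 84571414 to 84593908) had 1.48, 1.24 and 0.950 CPM at 0 h and 15.9, 8.64 and 7.75 CPM at 48 h (log2 fold change 3.14 ± 0.34 (SE), adjusted p = 0.000494). Aldh1a7 had 20.3, 16.6 and 14.6 CPM at 0 h and 35.8, 44.7 and 42.5 CPM at 48 h (log2 fold change 1.26 ± 0.14 (SE), adjusted p = 0.000581), but is a close copy of Aldh1a1, so reads may be split between them. The receptor Rarg fell, at 70.2, 60.9 and 61.0 CPM at 0 h and 31.9, 31.1 and 32.7 CPM at 48 h (log2 fold change -1.01 ± 0.09 (SE), adjusted p = 0.000267), and so did Stra6, a retinol importer that overlaps Ccdc33, at 38.6, 44.1 and 45.9 CPM at 0 h and 24.5, 25.5 and 23.3 CPM at 48 h (log2 fold change -0.81 ± 0.10 (SE), adjusted p = 0.000798). Altogether 4 of 26 rose and 4 fell, again near the share of all genes. Falls numbered 7 without replicate 1 of 48 h.

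In the serine, one-carbon and nucleotide list 6 of 31 rose and 6 fell (median -0.15), with 38.7% called against 31.8% of all genes tested. The number that rose was 2 with scaling to library size only or without replicate 2 of 0 h and 3 without replicate 1 or 3 of 0 h or replicate 2 of 48 h. The number that fell was 17 with scaling to library size only. Mthfd2, a mitochondrial enzyme, had 24.0, 20.9 and 20.6 CPM at 0 h and 47.4, 46.0 and 50.1 CPM at 48 h (log2 fold change 1.13 ± 0.09 (SE), adjusted p = 0.000208). Its mitochondrial partners Shmt2 and Mthfd1l rose by 0.33 and 0.35. The cytosolic counterpart Shmt1 had 33.4, 29.1 and 27.7 CPM at 0 h and 15.7, 16.8 and 18.2 CPM at 48 h (log2 fold change -0.83 ± 0.11 (SE), adjusted p = 0.00115), and the cytosolic Mthfd1 fell by 0.41. Aldh1l1, which oxidises a folate of the cytosol, rose, at 21.4, 17.4 and 19.4 CPM at 0 h and 41.0, 28.0 and 30.04 CPM at 48 h (log2 fold change 0.76 ± 0.16 (SE), adjusted p = 0.00692). Atic, of purine synthesis, fell, at 102, 101 and 102 CPM at 0 h and 64.9, 68.3 and 66.4 CPM at 48 h (log2 fold change -0.61 ± 0.07 (SE), adjusted p = 0.000663). Primary cilium genes gave 2 rises and 8 falls among 47, a falling share of about the background. Those that rose numbered 0 with scaling to library size only or without replicate 2 or 3 of 0 h or replicate 3 of 48 h and 1 without replicate 2 of 48 h. Those that fell numbered 4 without replicate 2 or 3 of 0 h, 5 without replicate 1 of 0 h or replicate 3 of 48 h and 19 with scaling to library size only. Mks1 of the transition zone had 34.3, 39.3 and 35.7 CPM at 0 h and 25.2, 23.9 and 22.7 CPM at 48 h (log2 fold change -0.61 ± 0.09 (SE), adjusted p = 0.00214), and Bbs2 of the BBSome fell by 0.50. B9d1 rose by 0.51, a call lost with scaling to library size only (0.0593), without replicate 2 of 0 h (0.0612), without replicate 3 of 0 h (0.0637) and without replicate 3 of 48 h (0.0530), in a range of 0.00802 to 0.0637 over all alternatives. Ift81 fell by 0.50, a call lost without replicate 1 of 0 h (0.0886), without replicate 2 of 0 h (0.136), without replicate 3 of 0 h (0.0623) and without replicate 3 of 48 h (0.0623), in a range of 0.0124 to 0.136 over all alternatives.

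Some genes went from near silence to clear expression. The rule for such genes asked for at most 3 counts summed over 1 group and at least 20 in every library of the other, and 4 genes met it upwards and 1 downwards. Atp12a (chromosome 14, 56364669 to 56388551), a proton and potassium pump, had 1, 0 and 1 counts at 0 h and 320, 163 and 71 at 48 h. Pik3c2g (chromosome 6, 139614072 to 139969284), a class II phosphoinositide kinase, had 1, 1 and 0 counts at 0 h and 276, 171 and 103 at 48 h. Ssu2 (chromosome 6, 112359322 to 112388199) had 0, 1 and 1 counts at 0 h and 188, 102 and 73 at 48 h. Bpifb6 (chromosome 2, 153900388 to 153912795), of a family of lipid-binding proteins, had 1, 0 and 0 counts at 0 h and 173, 82 and 115 at 48 h. The ratio of 48 h over 0 h, scaled for library size, was 306 (95% interval 84.4 to 2535) for Atp12a, 304 (95% interval 83.8 to 2516) for Pik3c2g, 201 (95% interval 55.1 to 1663) for Ssu2 and 409 (95% interval 73.0 to 16198) for Bpifb6. These exact intervals cover counting error only. Replicate 1 held the most counts of the 48 h libraries for all 4, although replicate 2 was the deepest library. Nefh (chromosome 11, 4938754 to 4948064), a neurofilament gene that overlaps Ap1b1, had 36, 20 and 21 counts at 0 h and 1, 1 and 0 at 48 h, a ratio of 0 h over 48 h of 34.8 (95% interval 9.32 to 293).

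Other rises large for their error were spread over several functions. Cdh15 (chromosome 8, 122848374 to 122867397), a cadherin known from muscle, had 0.129, 0.247 and 0.158 CPM at 0 h and 47.8, 11.9 and 24.6 CPM at 48 h (log2 fold change 7.20 ± 0.68 (SE), adjusted p = 0.000312), and a log2 fold of 6.57 without replicate 1 of 48 h. Wnt10b (chromosome 15, 98770712 to 98778206), a Wnt ligand, had 0.193, 0.296 and 0.211 CPM at 0 h and 13.7, 13.4 and 10.3 CPM at 48 h (log2 fold change 5.68 ± 0.27 (SE), adjusted p = 2.20e-05). Its replicate 1 was not apart from the others at 48 h. Abcb1b (chromosome 5, 8798147 to 8866314), a drug efflux pump with a close copy in Abcb1a, had 2.06, 3.51 and 3.80 CPM at 0 h and 338, 85.5 and 122 CPM at 48 h (log2 fold change 5.84 ± 0.58 (SE), adjusted p = 0.000368). Without 48 h replicate 1 it measured 5.01. Cemip, which takes part in hyaluronan breakdown, had 2.76, 2.87 and 2.95 CPM at 0 h and 78.0, 93.9 and 54.8 CPM at 48 h (log2 fold change 4.72 ± 0.22 (SE), adjusted p = 2.20e-05). The bone and cartilage regulator Runx2, which overlaps Supt3, had 1.61, 1.78 and 1.32 CPM at 0 h and 35.0, 23.3 and 25.8 CPM at 48 h (log2 fold change 4.15 ± 0.21 (SE), adjusted p = 3.02e-05). Plin4, a coat protein of lipid droplets that overlaps Hdgfl2, had 3.86, 4.40 and 4.54 CPM at 0 h and 166, 64.1 and 108 CPM at 48 h (log2 fold change 4.71 ± 0.35 (SE), adjusted p = 0.000128). Elapor1 had 1.67, 3.61 and 1.53 CPM at 0 h and 151, 28.5 and 65.7 CPM at 48 h, at a log2 fold of 5.13 with all libraries and 4.31 without replicate 1 of 48 h. In Plin4 and Elapor1 replicate 2 was lowest and replicate 1 highest at 48 h. 4930550L24Rik had 0, 0.247 and 0.0528 CPM at 0 h and 3.76, 6.76 and 5.66 CPM at 48 h, at 5.56 and 7.24 without replicate 2 of 0 h. Replicate 1 led at 48 h in most large rises. Of the 179 genes called higher at a log2 fold of 2 or more, 48 h replicate 1 was the highest 48 h library in 133, replicate 2 in 25 and replicate 3 in 21. Among all 14401 genes tested the numbers were 6055, 4340 and 4006. Of the 465 genes called lower and at least halved, replicate 1 was the highest 48 h library in 332.

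**Figure D5:**
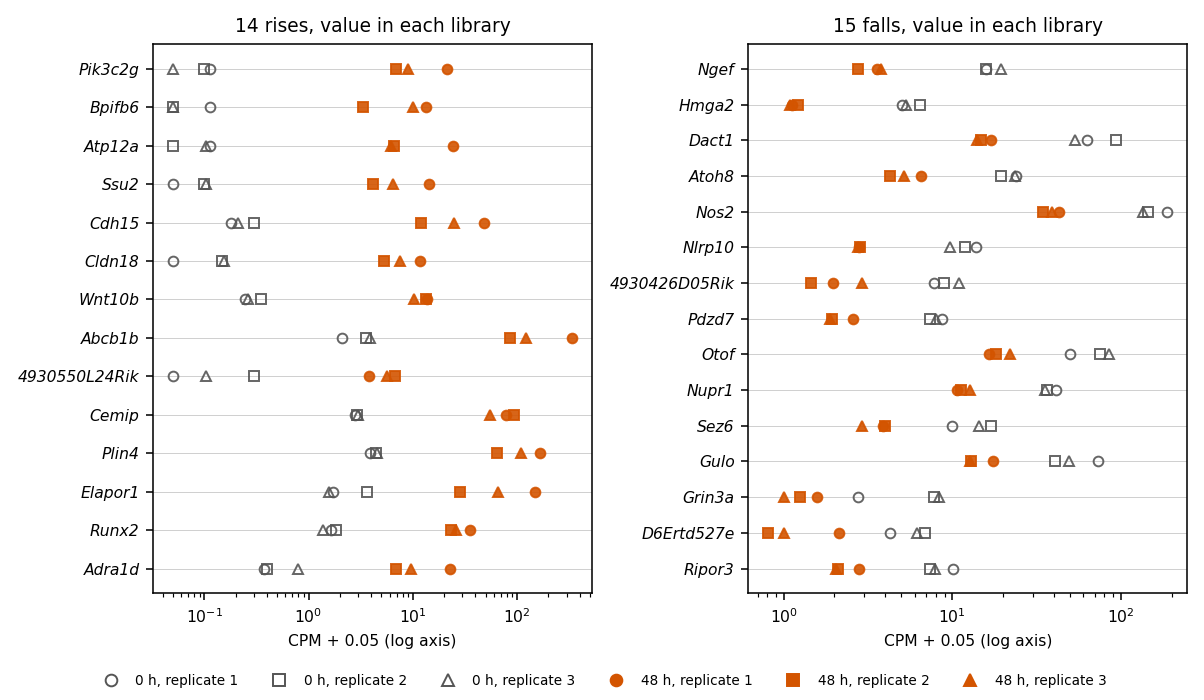
Values of 14 of the 15 rises (left) and 15 falls (right) that were largest after subtracting 2 standard errors, each on a log axis of CPM + 0.05, with open grey symbols for the 0 h and filled orange symbols for the 48 h libraries. Groups do not overlap in any of the genes shown, as the rule for choosing them required. Among the rises 48 h replicate 1 (filled circle) is most often the rightmost.

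The falls that were largest for their error were smaller than the rises. Ngef, an exchange factor for small GTPases downstream of Eph receptors, had 15.9, 15.8 and 19.4 CPM at 0 h and 3.53, 2.72 and 3.74 CPM at 48 h (log2 fold change -2.38 ± 0.18 (SE), adjusted p = 0.000128). Hmga2, a chromatin protein of growing embryonic cells, had 5.01, 6.37 and 5.28 CPM at 0 h and 1.07, 1.16 and 1.04 CPM at 48 h (log2 fold change -2.33 ± 0.23 (SE), adjusted p = 0.000378). Dact1, which modulates Wnt signalling and overlaps 2700049A03Rik, had 62.7, 93.2 and 53.3 CPM at 0 h and 16.9, 14.8 and 14.02 CPM at 48 h (log2 fold change -2.19 ± 0.20 (SE), adjusted p = 0.000291). Atoh8, a basic helix-loop-helix factor, had 23.8, 19.4 and 23.5 CPM at 0 h and 6.52, 4.24 and 5.14 CPM at 48 h (log2 fold change -2.08 ± 0.18 (SE), adjusted p = 0.000230). Nos2 (chromosome 11, 78920787 to 78960226), the inducible nitric oxide synthase, had 189, 146 and 135 CPM at 0 h and 43.2, 34.5 and 38.8 CPM at 48 h (log2 fold change -2.01 ± 0.14 (SE), adjusted p = 0.000112). Nupr1, a stress-induced nuclear protein, had 41.5, 36.5 and 35.6 CPM at 0 h and 10.7, 11.2 and 12.7 CPM at 48 h (log2 fold change -1.72 ± 0.11 (SE), adjusted p = 8.90e-05). Its libraries were close together within each group. Otof, a calcium sensor of vesicle fusion in hair cells, had 49.8, 75.2 and 85.1 CPM at 0 h and 16.4, 18.2 and 21.9 CPM at 48 h (log2 fold change -1.90 ± 0.20 (SE), adjusted p = 0.000456). Gulo, the last enzyme of vitamin C synthesis, had 73.5, 40.4 and 49.2 CPM at 0 h and 17.3, 12.8 and 12.7 CPM at 48 h (log2 fold change -1.93 ± 0.23 (SE), adjusted p = 0.000728). Nlrp10, of a family of innate immune sensors, had 13.8, 11.9 and 9.71 CPM at 0 h and 2.76, 2.80 and 2.70 CPM at 48 h (log2 fold change -2.09 ± 0.19 (SE), adjusted p = 0.000267). The 48 h libraries of Nlrp10 nearly coincided. Grin3a, a glutamate receptor subunit, fell by 2.34, Sez6 by 1.95, Pdzd7, which overlaps Lzts2 and Sfxn3, by 1.94 and Ripor3 by 1.89. The noncoding or uncharacterised loci D6Ertd527e and 4930426D05Rik were also lower. D6Ertd527e fell by 2.22, and 4930426D05Rik, which overlaps Klhl14, fell by 2.2047.

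Long noncoding RNAs called at 48 h were mostly lower, with 25 higher and 82 lower of 478 tested and a median log2 fold of -0.18. Of all genes tested 16.0% were higher and 15.8% lower, so the falling share was near that level and the rising share below it. The higher count was 15 without replicate 3 of 0 h and 13 without replicate 3 of 48 h. The lower count was 48 without replicate 2 or 3 of 0 h, 41 without replicate 2 of 48 h, 49 without replicate 3 of 48 h and 109 without replicate 1 of 48 h, and 123 with scaling to library size only. Of 23 tested microRNA loci 0 rose and 4 fell by edgeR and 0 rose and 2 fell by DESeq2, with 0 higher at an unadjusted p under 0.05. Their falling share by edgeR was also near that of all genes tested. The falls numbered 1 without replicate 2 or 3 of either time, and 7 with scaling to library size only. A caution is that standard RNA libraries measure precursors and host transcripts rather than mature microRNAs. Genes can also be shown not to move by much. For 573 genes (3.98% of those tested) the 95% interval of the log2 fold lay within 0.25 of 0. The 5 most abundant were Obsl1, Maged1, Fth1, Kpnb1 and Bmpr1b. Obsl1, a cytoskeletal adaptor, had 1598 ± 51.0 CPM at 0 h and 1589.8 ± 19.0 CPM at 48 h (mean ± SD, n = 3 per group). The nuclear import receptor Kpnb1 had 418 ± 10.9 and 418 ± 48.4 CPM. Bmpr1b, a receptor for BMP15 from the oocyte, had 412 ± 17.5 and 422 ± 21.3 CPM, and Maged1 had 929 ± 30.1 and 932 ± 28.5 CPM.

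H3K4me3 counts of the same genes, from 2 libraries per group, were set beside the RNA with no test. The median log2 ratio of 48 h over 0 h was 0.11 for 2302 genes with higher RNA, -0.01 for 2277 with lower RNA and 0.04 for 9780 not called. For genes at least doubled it was 0.21 (636 genes) and for genes at least halved -0.16 (462 genes). Named genes differed from each other. Adra1d had 12.3 and 10.8 CPM at 0 h and 20.6 and 22.3 CPM at 48 h. The 2 libraries at 48 h were above the 2 at 0 h. Atoh8 had 72.9 and 82.4 CPM at 0 h and 44.7 and 39.9 CPM at 48 h, and Nupr1 had 27.4 and 25.4 CPM at 0 h and 12.2 and 14.3 CPM at 48 h, with no overlap in the other direction. Among the 4 genes that came on from near silence, none had both 48 h libraries above both 0 h libraries. Atp12a had 6.20 and 6.65 CPM at 0 h and 5.22 and 5.73 CPM at 48 h, and Pik3c2g had 1.66 and 2.66 CPM at 0 h and 2.04 and 1.35 CPM at 48 h. Nos2, for which RNA fell, had 1.79 and 1.16 CPM at 0 h and 1.56 and 1.07 CPM at 48 h, and Cdh15 0.768 and 1.33 CPM at 0 h and 1.80 and 1.24 CPM at 48 h, levels at which groups overlapped.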

How the data were processed

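RNA of granulosa cells was compared between 3 libraries at 0 h and 3 at 48 h after eCG. The deposited RNA and H3K4me3 tables hold raw counts per gene (whole numbers with unequal totals), and no scaling by the authors is visible in them. H3K4me3 columns were tied to their group by name. The submitters' processing notes name STAR, kallisto, sleuth, Picard and FastQC 0.11.5 for RNA, and ChIPseeker 1.18.0, MACS2 2.2, Bowtie2 2.2.9 and Trimmomatic for H3K4me3, on build mm10. The counting program, its use of strand and the H3K4me3 window are not given in the sources that were used, so reads of overlapping genes may be shared. Symbols (24742 of 24809 IDs), coordinates and promoters came from RefSeq tables of GRCm38.p6, which give whole genes without exons.

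Counts were tested with edgeR 4.0.16 (R 4.3.3) by the quasi-likelihood method, with TMM scaling, the filterByExpr filter, Benjamini-Hochberg adjustment over the 14401 genes tested and no covariate. CPM were computed with the same scaling. The SE of a log2 fold change is its size over the square root of F. The biological coefficient of variation was 0.141. Depth was 12013849 to 26343971 counts, and p-values and intervals rest on 3 libraries per group. Alternatives were DESeq2 1.42.0, DESeq2 size factors, library size only, no filter, a filter of 50 counts, a replicate block and each library left out. Replicates of a group differed by more than sampling noise (chi-square of 5.16 to 38.5 per degree of freedom). The code was tested on simulated data.

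The 30 pathway lists, the 8 marker lists and the members were chosen with earlier results of these data known. Named genes were, per list, the called members with non-overlapping groups and at least 5 CPM in the higher group that had the 4 largest log2 folds and the largest in the rarer direction. Outside the usual steroid, cholesterol and FSH genes they were the 10 gains and 10 losses of most CPM, the 15 rises and 15 falls largest after subtracting 2 SE, genes with at most 3 counts in 1 group and at least 20 in every library of the other, and the 5 most abundant genes with a 95% interval within 0.25 of 0. Non-overlapping groups were required of the genes named from lists and of the 15 rises and 15 falls. They were found in 47.9% of all genes tested. Other members of a list given with a log2 fold alone were chosen after their values were seen. No list was tested as a set. Some genes that met these rules are not reported here.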

Additional observations from a re-analysis of the deposited data

How the results depend on the processing

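No called gene named by rule changed direction under an alternative. The genes named as steady were not called and lie near 0, so the sign of their log2 fold is left out of this statement. The median log2 fold of a list did change sign under at least 1 alternative in 8 of 30 pathway lists, whose medians were -0.07 to 0.18, and in 4 of 8 marker lists. Without replicate 1 of 48 h the theca markers went from 0.44 to -0.07 and the FGF and PDGF genes from 0.18 to -0.10. With scaling to library size only the calcium genes went from 0.15 to -0.02 and the retinoid genes from 0.0067 to -0.16. Of 2133 values of named genes over the alternatives 2023 kept their side of the threshold and 110 lost a call. Counts of called list members moved by more than 1.5 times in 155 of 720 cases, and list medians moved by more than the spread between replicates in 72 of 360. The number of genes called was 2882 to 5345 when 1 library was left out, and 4467 to 5765 with the other filters, scalings and DESeq2. The number called lower was 1228 to 2648 with 1 library left out and 4222 with scaling to library size only. The number called higher was 1543 to 2697 and the number called with at least a doubling or halving 738 to 1275 over all alternatives. With the replicate block 3312 genes were called, 1788 higher and 1524 lower, and 920 at least doubled or halved. Of the named genes 9 lost their call with this block. The lost calls and moved counts given above by gene or by list leave this block out. Same-numbered libraries did not deviate together, with correlations of -0.22, -0.15 and -0.17, and the best partner of a library was never its own number. The numbers thus gave no sign of pairing, which 3 libraries per group cannot exclude. Depth limits genes of a few CPM, for which the counts of a library are few.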
